A study of Mus musculus with 27 samples.

Results

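The genes described here encode the nuclear pore complex, the channel through the nuclear envelope, and include Nup85, which encodes FROUNT. Members were chosen by name and not by any measured value: protein-coding genes of both count tables whose symbol was Nup followed by a number, plus Seh1l, Sec13, Pom121, Ndc1, Aaas, Rae1, Tpr and Ranbp2. This gave 29 of the 54532 genes listed. The pore proteins sort into modules: the Y complex that forms the outer rings, an inner ring, a ring of membrane-spanning anchors, a central channel of FG-repeat proteins that bind transport receptors, filaments on the cytoplasmic side and a basket on the nuclear side. Activated lymphocytes enlarge their nuclei and traffic more RNA and protein through these pores. FROUNT is a Y complex scaffold that also binds the chemokine receptor CCR2 in the cytoplasm, and disulfiram (DSF), an inhibitor of aldehyde dehydrogenase used against alcohol dependence, is known to bind it.

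The cells were splenic B cells of wild-type C57BL6 mice, obtained by magnetic negative selection and cultured for 3 h, and poly(A) RNA was sequenced. In the first experiment, 4 libraries each came from unstimulated cells, from cells given LPS, a TLR4 ligand, from cells given IL-4+anti-CD40, which stands in for T cell help, and from either stimulus with 1 µM DSF (LPS+DSF and IL-4+anti-CD40+DSF). The second experiment had 1 library for each of those 5 groups and 1 for each stimulus with 1 µM ibrutinib, an inhibitor of the tyrosine kinase Btk (LPS+ibrutinib and IL-4+anti-CD40+ibrutinib). Libraries with a stimulus alone were labelled as given vehicle, named DMSO in the second experiment. Labels of the unstimulated libraries named no vehicle in the first experiment and DMSO in the second. No unstimulated library was treated with DSF or ibrutinib, so neither compound could be read without a stimulus. The labels do not say whether replicates were separate mice, and p-values cover the spread between these libraries.

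Libraries of the first experiment held 17804851 to 23632992 counts, those of the second 16049295 to 24619776. The 5 B cell markers Cd79a, Cd79b, Ms4a1, Cd22 and Pax5 were above 3 counts in every group, and their summed FPKM was 1982 to 2793 in unstimulated libraries, 1062 to 1138 with LPS, 792 to 875 with LPS+DSF, 1124 to 1312 with IL-4+anti-CD40 and 987 to 1063 with IL-4+anti-CD40+DSF. FPKM, fragments scaled for transcript length and library size, is used below for levels, since it can be compared between genes. The 5 myeloid markers summed to 317 to 427 FPKM in unstimulated libraries and 79.2 to 145 elsewhere, mostly Lyz2, the 5 T cell markers to 0.246 to 2.46, the 4 NK cell markers to 0.133 to 2.05, the 6 erythroid markers to 1.48 to 17.7, and the 5 neutrophil markers to 10.1 to 55, with Ly6g at 3 counts or fewer everywhere. The unstimulated libraries stood apart as replicates 1 and 2 against 3 and 4: their deviations from the group mean, over genes, correlated at 0.66 and 0.60 within these pairs and at -0.82 to -0.81 across them. Comparisons with unstimulated cells were therefore also fitted with each pair alone, an alternative chosen after the data were seen.

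Of the 29 members, 28 had enough counts to be tested. The exception was Nup62cl, a paralog of Nup62 on the X chromosome, at 5 counts or fewer in every library. Levels ranged widely among the others: in unstimulated cells the mean FPKM ran from 0.727 ± 0.147 (SD, n = 4) for Nup210l, a paralog of Nup210, to 31.1 ± 3.95 (SD, n = 4) for Tpr, the filament protein of the basket. Nup62 had the highest level of any member in any group, 116 ± 15.5 FPKM (SD, n = 4) with IL-4+anti-CD40. The mean was highest with IL-4+anti-CD40 for 20 members, with LPS+DSF for 5 (Nup153, Nup210l, Nup54, Nup98 and Ranbp2), with LPS for Nup210 and Tpr, with IL-4+anti-CD40+DSF for Nup50, and in unstimulated cells for 0. It was lowest in unstimulated cells for 17 members and with LPS+DSF for 8. Among the 27 members other than Nup62cl and Nup210l, the ratio of the highest to the lowest unstimulated library had a median of 1.33 and reached 1.71 for Nup153, whereas its median was 1.08 to 1.16 in the other groups. Between the unstimulated pairs, 20 of these 27 members were lower in both of replicates 3 and 4 than in replicates 1 and 2, and 3 were higher.

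Nup85 (ENSMUSG00000020739) lies at chr11:115564434-115583985 on the plus strand of mm10, and no other gene of the GENCODE vM21 annotation overlaps it. Its level was 16.1, 17.2, 14.1 and 15.2 FPKM in the unstimulated libraries, 24.4, 23.6, 23.1 and 22.5 FPKM with LPS, and 12, 12.8, 12.4 and 11.7 FPKM with LPS+DSF. It was 31.9, 33.6, 28.6 and 25.4 FPKM with IL-4+anti-CD40 and 13.9, 14.1, 15.4 and 14.8 FPKM with IL-4+anti-CD40+DSF. Every library with a stimulus alone lay above every unstimulated library, and every DSF library lay below all libraries with the same stimulus alone. Nup85 thus rose 1.51-fold with LPS (log2 fold change 0.59 ± 0.0674 SE, edgeR adjusted p = 9.04e-05) and 1.94-fold with IL-4+anti-CD40 (0.95 ± 0.103 SE, edgeR adjusted p = 6.22e-05). With DSF it was 1.89-fold lower under LPS (-0.92 ± 0.0489 SE, edgeR adjusted p = 1.21e-14) and 2.08-fold lower under IL-4+anti-CD40 (-1.06 ± 0.0799 SE, edgeR adjusted p = 1.63e-06). The DSF difference was not distinguishable between the stimuli (difference of log2 fold changes 0.13 ± 0.0959 SE, edgeR adjusted p = 0.385).

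Ordered by mean, Nup85 went from 12.2 ± 0.476 FPKM with LPS+DSF through 14.5 ± 0.699 with IL-4+anti-CD40+DSF, 15.7 ± 1.33 unstimulated and 23.4 ± 0.784 with LPS to 29.9 ± 3.62 with IL-4+anti-CD40 (SD, n = 4 each). Of the neighbours in this order, the unstimulated and IL-4+anti-CD40+DSF libraries overlapped and did not pass the test (-0.10 ± 0.0756 SE, edgeR adjusted p = 0.279), although the difference was called under total-count scaling (-0.41, edgeR adjusted p = 0.002) and with unstimulated replicates 1 and 2 alone (-0.21, edgeR adjusted p = 0.00949). The level with LPS+DSF was below the unstimulated one (-0.35 ± 0.0732 SE, edgeR adjusted p = 0.00195). The chemokine receptor gene Ccr2 followed another order, with 616 to 1074 counts in the unstimulated libraries and 19 to 175 counts in all stimulated ones.

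**Figure D1:**
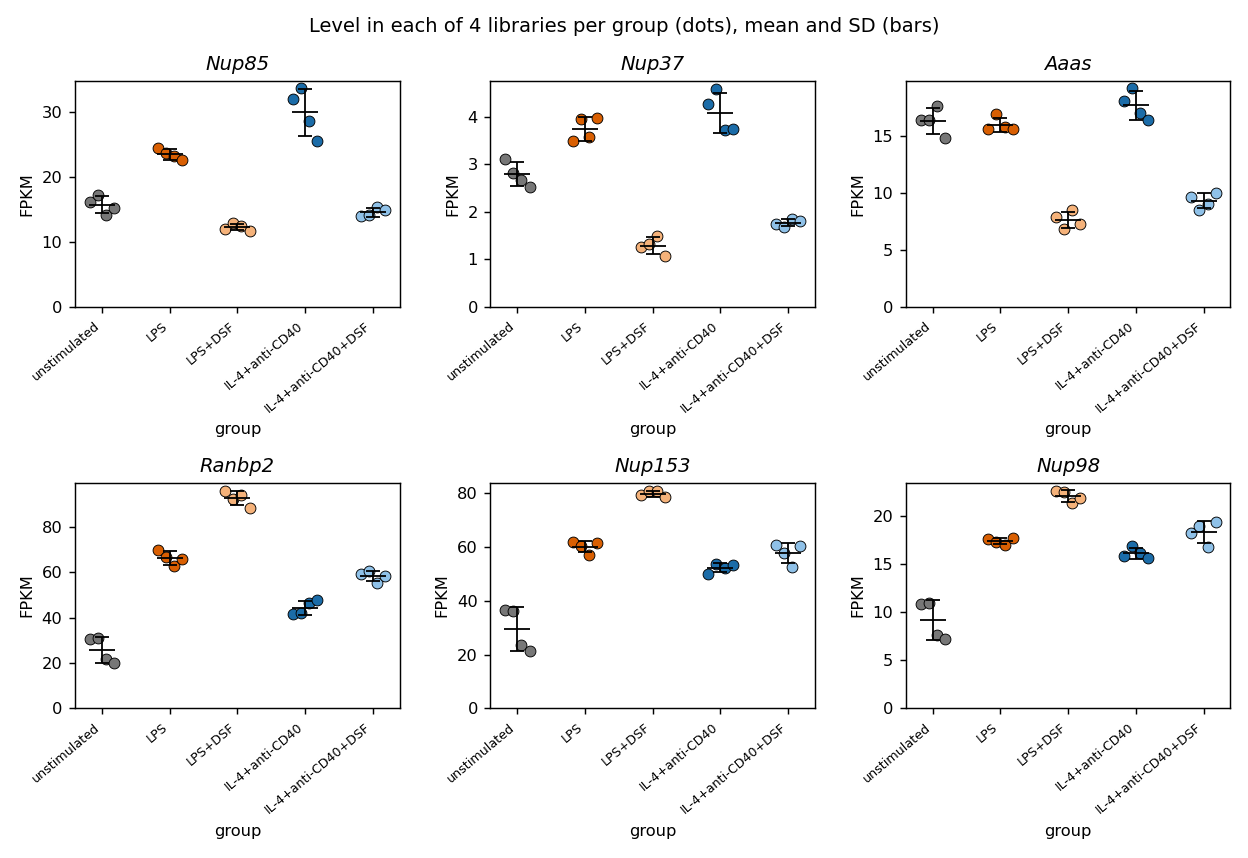
Level of 6 members in FPKM (y axis, from 0) in each of the 4 libraries of every group (dots), with the mean and SD (bars). Nup85, Nup37 and Aaas sat lower in the DSF libraries than with the stimulus alone, and Ranbp2 and Nup98 sat higher, from a mean of 66.4 to 92.7 FPKM for Ranbp2 under LPS.

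Both stimuli raised most pore genes. With LPS, 24 of the 28 members rose and 0 fell, against 29.6% higher and 33.3% lower among all 14477 genes tested, and the members' median log2 fold change was 0.59 against -0.05 for all genes. The counts with IL-4+anti-CD40 were 23 up and 1 down, against 30.4% and 32.1% of 14433 genes, with a median of 0.80 against -0.04. In the Y complex 8 of 9 members rose with each stimulus, led by Nup43, a beta-propeller subunit, from 4.52 ± 0.772 FPKM to 10.8 ± 0.944 under LPS (log2 fold change 1.27 ± 0.123 SE) and 12 ± 1.56 with IL-4+anti-CD40 (1.44 ± 0.142 SE; FPKM with SD, n = 4). The exception was Nup160, at -0.09 and 0.25, neither past the test. With LPS it was called lower under total counts (-0.31, edgeR adjusted p = 0.0119) and with unstimulated replicates 3 and 4 only (-0.20, edgeR adjusted p = 0.00442). With IL-4+anti-CD40 it was called higher in 8 alternatives at 0.20 to 0.38, among them DESeq2 (0.27, adjusted p = 0.0274), the fit of all 20 libraries (0.20) and the fits without unstimulated replicate 3 (0.29) or 4 (0.29) or IL-4+anti-CD40 replicate 4 (0.30). In the inner ring, Nup205 and Nup188, the large scaffold paralogs, had log2 fold changes of 0.92 and 0.78 with LPS against 1.23 and 0.94 with IL-4+anti-CD40. Nup155 and Nup93 rose with both, and Nup35 was at 0.18 with LPS, which did not pass, and rose with IL-4+anti-CD40 (0.37, edgeR adjusted p = 0.024), a call lost without unstimulated replicate 1 or 3 (0.31 and 0.34) or IL-4+anti-CD40 replicate 1 or 3 (0.32 and 0.37).

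The central channel had the largest rise. Nup62, the main FG protein there, went from 22.3 ± 0.653 FPKM to 55.6 ± 2.04 under LPS and 116 ± 15.5 under IL-4+anti-CD40 (SD, n = 4), which was 2.52-fold and 5.27-fold. Nup62 overlaps Il4i1 on the same strand and Atf5 on the opposite strand, and both had more counts with IL-4+anti-CD40 (Il4i1 6 to 14 unstimulated and 67 to 100, Atf5 125 to 152 and 468 to 844), so how reads of the shared stretches were assigned bears on Nup62, and its values are uncertain. Nup54, its partner in the channel, rose 2.22-fold and 2.02-fold. On the cytoplasmic side all 4 members rose with both stimuli: Ranbp2, the filament protein that carries SUMO ligase activity, by 2.59-fold (LPS) and 1.74-fold (IL-4+anti-CD40), Rae1, an mRNA export factor, by 1.71-fold and 1.75-fold, and Nup214 and Nup88, which hold the export platform, by 1.19-fold to 1.32-fold. In the basket, Nup153 rose 2.07-fold and 1.81-fold and Nup50, a cofactor of importin, 1.31-fold and 1.43-fold. Tpr rose 1.21-fold with LPS, a call lost without LPS replicate 1 (0.26), and was at 0.22 with IL-4+anti-CD40, which did not pass.

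The membrane ring was mixed. Pom121 and Ndc1, which anchor the pore in the envelope, rose with both stimuli (0.81 and 0.72 for LPS, 0.89 and 0.86 for IL-4+anti-CD40, log2). Nup210, a transmembrane protein with a large lumenal part, rose with LPS (0.32 ± 0.0842 SE, edgeR adjusted p = 0.00908) and was at -0.16 with IL-4+anti-CD40, which did not pass (edgeR adjusted p = 0.13). Aaas, which encodes ALADIN, was at -0.01 and 0.14, and neither difference passed. Nup210l was the one fall, with IL-4+anti-CD40 (-0.57 ± 0.216 SE, edgeR adjusted p = 0.0445), and the call was lost without unstimulated replicate 1, 3 or 4 or IL-4+anti-CD40 replicate 1, 2 or 3 (-0.61 to -0.41). The myeloid markers fell in the same comparisons, as given above, and fewer cells of a type cannot be told apart from less RNA per cell. Their part in the members' differences was not tested. Scaling by total counts moved the median of all genes to -0.27 (LPS) and -0.19 (IL-4+anti-CD40) and the higher share of called genes from 47.1% to 31.2% and from 48.6% to 38.3%, and then LPS gave 16 members up and 2 down and IL-4+anti-CD40 gave 20 up and 2 down. With each unstimulated pair alone, 54 of 56 member values with LPS kept their call and 2 gained one. For IL-4+anti-CD40, 51 of 56 kept it, 2 lost and 3 gained one. The sizes moved: over all settings the log2 rise with LPS was 0.75 to 1.44 for Nup153, 0.42 to 1.12 for Ndc1 and 1.11 to 1.37 for Nup62.

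**Figure D2:**
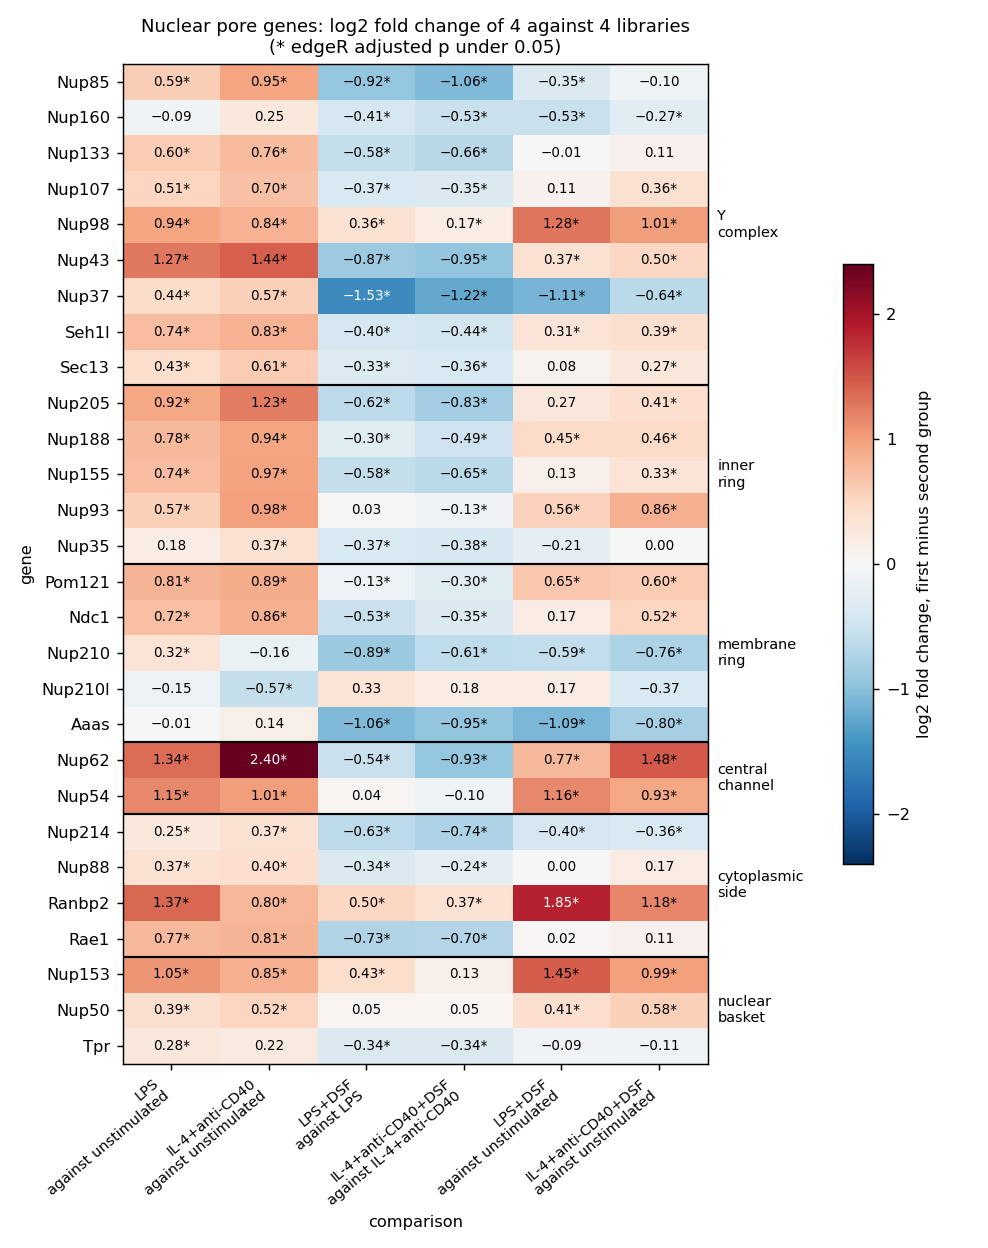
Log2 fold change (colour and number) of the 28 tested members (rows, by place in the pore) in 6 comparisons of 4 against 4 libraries (columns), with an asterisk where the edgeR adjusted p was under 0.05. The left 2 columns are mostly red, with 24 and 23 members higher, and the middle 2 mostly blue, with 21 and 22 members lower.

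DSF lowered most pore genes under either stimulus. Under LPS, 21 of 28 members fell and 3 rose, against 36.0% lower and 35.1% higher among 14154 genes, and the median was -0.39 against 0.00 for all genes. Under IL-4+anti-CD40, 22 fell and 2 rose, against 31.6% and 30.1% of 14275 genes, with a median of -0.41 against -0.02. Markers of other cells moved in these comparisons too. From IL-4+anti-CD40 to IL-4+anti-CD40+DSF the summed FPKM went from 82.9 to 100 up to 111 to 145 for the 5 myeloid markers, from 10.1 to 14.8 up to 16 to 19.2 for the 5 neutrophil markers and from 1.48 to 1.89 up to 2.72 to 3.85 for the 6 erythroid markers. From LPS to LPS+DSF the neutrophil markers went from 14.4 to 16.4 up to 18.4 to 21.7, the T cell markers from 0.539 to 1.01 down to 0.246 to 0.447, and the myeloid and erythroid ranges overlapped. The part of these markers in the members' differences was not tested. The DSF comparisons share no library. In both, 21 members were lower and 2 higher (Nup98 and Ranbp2), and 0 went opposite ways. Of the 13736 genes tested in both, 3769 were lower in both, 3540 higher in both and 210 opposite. Scaling by total counts moved the all-gene medians to -0.21 and -0.16 and the higher share of called genes from 49.4% to 34.2% and from 48.8% to 35.9%, and the members' counts to 24 lower and 3 higher under LPS and 23 lower and 1 higher under IL-4+anti-CD40.

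The share of members that fell varied between the modules, which held 2 to 9 tested members, and this variation was not tested. In the basket 1 of 3 members fell under each stimulus (median 0.05 for both), and in the channel 1 of the 2 tested. In the Y complex 8 of 9 members fell under each stimulus, among them Sec13, shared with the COPII vesicle coat (-0.33 and -0.36), and Nup37, a beta-propeller subunit that binds Nup160. The level of Nup37 was 3.49, 3.95, 3.58 and 3.98 FPKM with LPS and 1.26, 1.32, 1.5 and 1.07 FPKM with LPS+DSF, and 4.28, 4.58, 3.72 and 3.74 FPKM with IL-4+anti-CD40 and 1.75, 1.68, 1.85 and 1.8 FPKM with IL-4+anti-CD40+DSF. In unstimulated cells it was 3.12, 2.82, 2.68 and 2.53 FPKM, so all 8 DSF libraries lay under all 12 others. This was the deepest fall of any member, 2.88-fold under LPS (-1.53 ± 0.117 SE, edgeR adjusted p = 1.67e-11) and 2.33-fold under IL-4+anti-CD40 (-1.22 ± 0.102 SE, edgeR adjusted p = 2.74e-06). Nup43 fell 1.83-fold and 1.93-fold. Nup133, Nup160, Nup107 and Seh1l fell by 0.35 to 0.66 on the log2 scale.

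In the membrane ring Aaas fell most. Aaas was at 16.4, 16.4, 17.6 and 14.8 FPKM unstimulated, 15.6, 16.9, 15.8 and 15.6 FPKM with LPS and 7.85, 6.86, 8.48 and 7.22 FPKM with LPS+DSF. With IL-4+anti-CD40 it was at 18.1, 19.2, 17 and 16.4 FPKM, and with IL-4+anti-CD40+DSF at 9.67, 8.52, 9.02 and 9.98 FPKM. The DSF libraries again lay under all others. The fall was 2.08-fold under LPS (-1.06 ± 0.0678 SE, edgeR adjusted p = 5.03e-13) and 1.93-fold under IL-4+anti-CD40 (-0.95 ± 0.0716 SE, edgeR adjusted p = 1.63e-06). Nup210 fell 1.85-fold under LPS and 1.52-fold under IL-4+anti-CD40, Ndc1 1.44-fold and 1.27-fold, and Pom121 1.1-fold and 1.23-fold, the first of these not called in a fit of all 20 libraries (-0.14, edgeR adjusted p = 0.189). Nup210l did not pass the test under either stimulus (0.33 and 0.18, edgeR adjusted p = 0.0911 and 0.424).

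The inner ring split. Nup205, Nup155, Nup188 and Nup35 fell under both stimuli, Nup205 most (-0.62 ± 0.0411 SE and -0.83 ± 0.0616 SE). Nup93, which links the inner ring to the channel, was at 0.03 under LPS (edgeR adjusted p = 0.651) and -0.13 under IL-4+anti-CD40 (edgeR adjusted p = 0.04), and the latter call was lost without IL-4+anti-CD40 replicate 1 or 2 (-0.12 and -0.09) and without IL-4+anti-CD40+DSF replicate 2, 3 or 4 (-0.12, -0.11 and -0.13). That call was also lost in other settings, among them DESeq2 (-0.11, adjusted p = 0.102) and the fit of all 20 libraries (-0.07, edgeR adjusted p = 0.55). In the channel Nup62 fell 1.45-fold and 1.91-fold, with the doubt on its overlapping genes given above, and Nup54 was at 0.04 and -0.10, which did not pass. On the cytoplasmic side Rae1 fell 1.66-fold and 1.63-fold, Nup214 1.54-fold and 1.66-fold and Nup88 1.27-fold and 1.18-fold. In the basket Tpr fell 1.27-fold and 1.26-fold and Nup50 was at 0.05 under each stimulus, which did not pass. Under total-count scaling Nup93, Nup54 and Nup50 turned to -0.18, -0.17 and -0.16 under LPS and were called lower.

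The members that rose were Ranbp2, Nup98 and Nup153, which encode FG-repeat proteins of the cytoplasmic filaments, of both faces and of the basket. FG repeats were not particular to them. Nup62, the main FG protein of the channel, fell under both stimuli (-0.54 and -0.93, with the doubt given above), and Nup54 of the channel did not pass. Ranbp2 was at 69.9, 66.7, 62.8 and 66.1 FPKM with LPS and 95.8, 92.4, 94.1 and 88.6 FPKM with LPS+DSF, and at 41.7, 41.9, 46.6 and 47.7 FPKM with IL-4+anti-CD40 and 59.3, 60.6, 55.2 and 58.5 FPKM with IL-4+anti-CD40+DSF. In unstimulated cells it was at 30.5, 31.1, 21.9 and 20.2 FPKM, so the 5 groups did not overlap. The rise with DSF was 1.41-fold under LPS (0.50 ± 0.0426 SE, edgeR adjusted p = 1.18e-10) and 1.29-fold under IL-4+anti-CD40 (0.37 ± 0.0629 SE, edgeR adjusted p = 0.000337).

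Nup153 was at 36.6, 36.2, 23.7 and 21.4 FPKM unstimulated, 61.8, 60.3, 57 and 61.4 FPKM with LPS and 79.1, 80.8, 80.6 and 78.6 FPKM with LPS+DSF. It was at 50, 53.6, 52.1 and 53.4 FPKM with IL-4+anti-CD40 and 60.7, 57.7, 52.6 and 60.3 FPKM with IL-4+anti-CD40+DSF, where replicate 3 lay within the range without DSF. It rose 1.34-fold under LPS (0.43 ± 0.0393 SE, edgeR adjusted p = 5.20e-10) and did not pass under IL-4+anti-CD40 (0.13 ± 0.0561 SE, edgeR adjusted p = 0.0717). Under IL-4+anti-CD40 it did pass without IL-4+anti-CD40+DSF replicate 3 (0.17, edgeR adjusted p = 0.0135) and in DESeq2 (0.14, adjusted p = 0.0412). It also passed with DESeq2 size factors in edgeR (0.14) and with the filter of at least 10 counts in every library (0.16).

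Nup98 encodes both Nup98, an mRNA export factor that binds Rae1, and Nup96, a Y complex subunit cut from the same precursor. It was at 10.9, 11, 7.58 and 7.23 FPKM unstimulated, 17.6, 17.3, 17 and 17.7 FPKM with LPS and 22.6, 22.5, 21.3 and 21.9 FPKM with LPS+DSF. It was at 15.8, 16.9, 16.1 and 15.6 FPKM with IL-4+anti-CD40 and 18.2, 19, 16.8 and 19.4 FPKM with IL-4+anti-CD40+DSF, where replicate 3 lay within the range without DSF. The rise was 1.28-fold under LPS (0.36 ± 0.0385 SE, edgeR adjusted p = 7.20e-09) and 1.12-fold under IL-4+anti-CD40 (0.17 ± 0.054 SE, edgeR adjusted p = 0.0191). The call under IL-4+anti-CD40 was lost without IL-4+anti-CD40 replicate 1 (0.16), without IL-4+anti-CD40+DSF replicate 2 or 4 (0.15 and 0.14) and under total-count scaling (0.02). That call was also lost when all genes with any count were tested (0.15, edgeR adjusted p = 0.0748) and in the fit of all 20 libraries (0.23, edgeR adjusted p = 0.0545).

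The promoters of the members with the deepest falls and the largest rises under LPS are shown to set their sequences side by side, as 250 bases before to 50 bases after the transcription start, written 5′ to 3′ on the strand of the gene, from RefSeq on GRCm38.p6. Capitals mark matches on either strand to motifs searched in all promoters: the E-box CACGTG, the ETS motif CCGGAAGT, the NRF1 motif GCGCATGC, the NF-Y motif CCAAT and the heat shock element TTCNNGAA. Nup37 (chr10:88146742-88147041, plus strand) held CCAAT from base -20 and Aaas (chr15:102350710-102351009, minus strand) CCGGAAGT from base -46 relative to the start. Ranbp2 (chr10:58446602-58446901, plus strand) held CACGTG from base -87, and Nup153 (chr13:46727800-46728099, minus strand) held none of the 5.
Nup37: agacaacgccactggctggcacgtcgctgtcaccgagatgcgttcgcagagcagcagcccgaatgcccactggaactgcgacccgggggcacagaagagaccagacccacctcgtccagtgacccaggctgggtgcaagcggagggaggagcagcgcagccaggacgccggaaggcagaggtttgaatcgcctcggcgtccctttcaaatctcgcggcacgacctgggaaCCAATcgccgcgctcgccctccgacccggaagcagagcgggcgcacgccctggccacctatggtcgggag
Aaas: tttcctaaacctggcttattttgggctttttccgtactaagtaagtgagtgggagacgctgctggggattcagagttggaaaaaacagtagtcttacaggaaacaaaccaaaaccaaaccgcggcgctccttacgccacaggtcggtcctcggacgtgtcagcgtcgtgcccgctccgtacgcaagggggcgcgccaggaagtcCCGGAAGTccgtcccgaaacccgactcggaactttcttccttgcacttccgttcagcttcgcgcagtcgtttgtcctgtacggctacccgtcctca
Ranbp2: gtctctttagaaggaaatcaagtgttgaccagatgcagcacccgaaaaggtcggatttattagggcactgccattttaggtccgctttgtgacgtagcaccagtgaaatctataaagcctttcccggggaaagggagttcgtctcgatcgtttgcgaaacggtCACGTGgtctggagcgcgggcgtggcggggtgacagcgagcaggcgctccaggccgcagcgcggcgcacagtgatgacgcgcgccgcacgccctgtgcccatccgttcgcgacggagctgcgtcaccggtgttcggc
Nup153: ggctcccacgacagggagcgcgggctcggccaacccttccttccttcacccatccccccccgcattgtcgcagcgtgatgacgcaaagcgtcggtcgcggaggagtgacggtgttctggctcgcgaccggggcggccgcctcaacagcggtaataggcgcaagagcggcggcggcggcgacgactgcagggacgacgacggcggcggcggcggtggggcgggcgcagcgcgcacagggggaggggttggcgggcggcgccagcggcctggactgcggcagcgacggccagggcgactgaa

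The promoter table held 24 of the 29 members, with no entry for Nup85, Nup43, Seh1l, Nup35 and Nup210l. CCAAT was in 10 of these 24 (41.7%) and in 37.9% of all 27025 promoters of that length, and CACGTG in 4 of 24 (16.7%) against 7.24%. CCGGAAGT was in 5 of 24 (20.8%; Sec13, Nup155, Aaas, Nup54 and Rae1) against 4.00%, GCGCATGC in 3 of 24 (12.5%; Nup107, Nup62 and Nup50) against 2.80%, and TTCNNGAA in 0 against 8.40%. Of the members with CCGGAAGT, Sec13, Nup155, Aaas and Rae1 fell with DSF under both stimuli and Nup54 did not pass. Among all 28 tested members 21 fell under both, but for Nup85, Nup43, Seh1l, Nup35 and Nup210l the motif could not be looked for. Whether the motif goes with the falls was not tested. The members' promoters had a median of 63.8% G and C (50.7% to 74.0%) against 52.7% for all promoters.

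**Figure D3:**
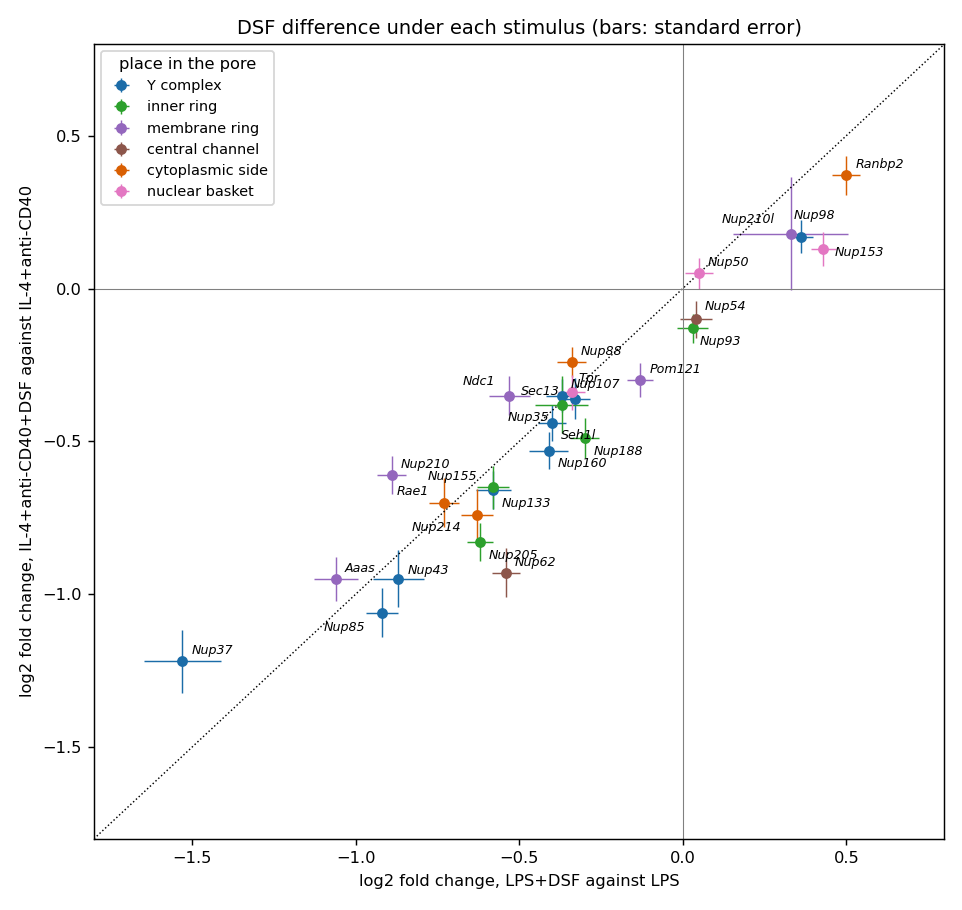
Log2 fold change with DSF under LPS (x axis) and under IL-4+anti-CD40 (y axis) for the 28 tested members, with standard errors as bars, colours for the place in the pore and a dotted line of equality. Most members lie in the lower left, from Nup37 at -1.53 and -1.22 to Pom121 at -0.13 and -0.30, and Ranbp2 lies farthest to the upper right at 0.50 and 0.37.

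Whether the DSF difference depended on the stimulus was tested over the 16 libraries involved. Of the 28 members, 2 differed with a higher value under LPS and 1 with a lower one, against 7.92% and 6.96% of 15130 genes, and the median difference was 0.08 against 0.02 for all genes. Nup62 fell less under LPS than under IL-4+anti-CD40 (difference of log2 fold changes 0.39 ± 0.0988 SE, edgeR adjusted p = 0.0109). Nup153 rose more under LPS (0.30 ± 0.0691 SE, edgeR adjusted p = 0.00613). Neither passed in a fit of all 20 libraries (0.31 and 0.22, edgeR adjusted p = 0.0595 and 0.49). Nup210 fell more under LPS (-0.29 ± 0.0832 SE, edgeR adjusted p = 0.0238), a call lost without LPS replicate 1, LPS+DSF replicate 4, or IL-4+anti-CD40+DSF replicate 2 or 4 (-0.26 each). Total-count scaling moved the higher share of called genes from 53.2% to 36.7%, with 2 members higher and 1 lower as before.

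The DSF libraries were also compared with the unstimulated cells, which were cultured for the same 3 h. With LPS+DSF, 11 of 28 were higher and 6 lower, against 34.3% and 37.3% of 14663 genes, with a median of 0.15 against -0.02. With IL-4+anti-CD40+DSF, 16 were higher and 5 lower, against 33.4% and 35.3% of 14678 genes, with a median of 0.35 against -0.00. These comparisons share the unstimulated libraries with each other. Members above the unstimulated level in both included Ranbp2 (3.59-fold and 2.27-fold), Nup153 (2.72-fold and 1.98-fold), Nup98 (2.42-fold and 2.02-fold), Nup54 (2.24-fold and 1.9-fold) and Nup62 (1.71-fold and 2.78-fold). Members below it in both were Nup37 (-1.11 and -0.64), Aaas (-1.09 and -0.80), Nup210 (-0.59 and -0.76), Nup160 (-0.53 and -0.27) and Nup214 (-0.40 and -0.36, log2). Nup85 was below it with LPS+DSF, and Rae1, Nup133, Nup88, Nup35, Nup210l and Tpr passed in neither.

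These counts moved with the unstimulated libraries and the scaling. With unstimulated replicates 1 and 2 alone, 10 members were lower with LPS+DSF and 8 with IL-4+anti-CD40+DSF. With replicates 3 and 4 alone, 16 members were higher and 6 lower with LPS+DSF, and for IL-4+anti-CD40+DSF the counts were 19 higher and 6 lower. Nup133 went from -0.31 with replicates 1 and 2 to 0.31 with replicates 3 and 4 in the LPS+DSF comparison, called each way. Total-count scaling moved the all-gene medians to -0.43 and -0.31 and the higher share of called genes from 47.9% to 29.7% and from 48.6% to 31.6%, and gave 5 members higher and 13 lower for LPS+DSF and, for IL-4+anti-CD40+DSF, 7 higher and 10 lower. Calls lost when 1 library was left out were Nup43 with LPS+DSF (0.26 to 0.34 without unstimulated replicate 3 or 4 or LPS+DSF replicate 4) and, with IL-4+anti-CD40+DSF, Nup155 (0.22 to 0.34 without unstimulated replicate 3 or 4 or IL-4+anti-CD40+DSF replicate 1, 2 or 4), Nup160 (-0.29 to -0.23 without unstimulated replicate 3 or IL-4+anti-CD40+DSF replicate 1, 3 or 4) and Ndc1 (0.40 to 0.47 without unstimulated replicate 3 or 4 or IL-4+anti-CD40+DSF replicate 1).

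Across the 20 libraries, members differed in how closely their level followed that of Nup85, here as Pearson correlations of log2 CPM, counts scaled by library size, that describe shared treatment and carry no test. Among the 8440 genes averaging 10 CPM or more, the 5 most alike were Mthfd1 (0.990), a folate enzyme of purine synthesis, Eri3 (0.986), Cdca7 (0.986), Sfxn1 (0.986), a mitochondrial serine carrier, and Cpsf1 (0.982), of the mRNA cleavage complex. The most alike member was Rae1 (0.928), at rank 186, followed by Nup133 (0.899), Nup214 (0.875) and Nup205 (0.868). Ranbp2 (-0.225), Nup153 (-0.109) and Nup98 (-0.089) were the least alike. The Y complex partners of Nup85 lay between 0.899 for Nup133 and -0.089 for Nup98, without Nup37, whose level was under the limit of 10 CPM.

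Transport through the pore was read from a list of 35 genes, all of them tested. They were importins, exportins, Ran factors, mRNA export factors (Nxf1, Nxt1, Gle1, Ddx19a and Ddx19b) and Ahctf1, which encodes a protein of the pore itself. LPS gave 28 of them up and 1 down, and IL-4+anti-CD40 gave 34 up and 0 down. The all-gene shares were 29.6% up and 33.3% down for LPS, and 30.4% and 32.1% for IL-4+anti-CD40. With DSF under LPS, 11 rose and 17 fell, against 35.1% higher and 36.0% lower among all genes, and the median log2 fold change was -0.05. With DSF under IL-4+anti-CD40, 4 rose and 23 fell, against 30.1% and 31.6%, with a median of -0.36. The members' medians were -0.39 and -0.41. The deepest falls under DSF were those of Ipo11, an importin (-0.92 under LPS, edgeR adjusted p = 3.22e-12, and -1.02 under IL-4+anti-CD40, edgeR adjusted p = 1.10e-06), Xpo5, the exportin of microRNA precursors (-0.90 under LPS), and Ipo4 (-1.01 under IL-4+anti-CD40). The largest rises were those of Kpna4, an importin alpha (0.88 and 0.83), and Xpo1, the main exportin of proteins (0.72 and 0.44). For 11 of the 35 the DSF difference was higher under LPS than under IL-4+anti-CD40, and for 0 lower, against 7.92% and 6.96% of all genes. Of 9 genes of the nuclear lamina, 3 rose and 3 fell with DSF under LPS and 2 rose and 4 fell under IL-4+anti-CD40, near the all-gene shares just given.

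The second experiment, with 1 library per condition, has no replicate check and no test, and gives log2 ratios of normalized counts over 14275 genes. With LPS 2 of 28 members were at least 2-fold higher (Nup43 at 1.30 and Nup62 at 1.74) and 0 lower, against 8.62% and 9.88% of genes, with a median of 0.51. With IL-4+anti-CD40 the members past 2-fold were 3 higher (Seh1l at 1.01, Nup43 at 1.33 and Nup62 at 2.49) and 0 lower, against 10.7% and 13.7%, with a median of 0.70. DSF under LPS gave 2 members 2-fold higher and 10 lower, against 20.3% and 19.5%, with a median of -0.81 against -0.04 for all genes, and 23 of 28 members and 7329 of 14275 genes were below 0. DSF under IL-4+anti-CD40 gave 0 higher and 13 lower, against 21.9% and 20.3%, with a median of -0.98 against -0.01, and 23 members and 7185 genes were below 0. Ibrutinib gave 0 members past 2-fold either way under LPS, against 2.81% higher and 2.47% lower, and 0 either way under IL-4+anti-CD40, against 2.23% and 1.69%.

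Nup85 had 1221 counts unstimulated, 1513 with LPS, 417 with LPS+DSF and 1619 with LPS+ibrutinib. It had 1820 with IL-4+anti-CD40, 362 with IL-4+anti-CD40+DSF and 2069 with IL-4+anti-CD40+ibrutinib. After normalization its log2 ratio was -1.75 and -1.95 with DSF and -0.29 and -0.31 with ibrutinib, under LPS and IL-4+anti-CD40. Nup37 again had the lowest ratios with DSF, at 34 counts with LPS+DSF against 278 with LPS (-2.87) and 13 counts with IL-4+anti-CD40+DSF against 294 (-3.98). Nup43 was at -2.58 and -2.02, and Nup62 at -1.32 and -2.04. The DSF ratio lay farther from 0 than the difference of the first experiment, at the same dose and time, for 25 of 28 members under LPS and 28 under IL-4+anti-CD40. The sign was the same for 26 and 28 of them. This count was not made over all genes, so it does not set the members apart from genes in general. The 2 experiments were not tested against each other.

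Nup98 (1.10 and 0.65), Ranbp2 (0.69 and 0.56), Nup153 (0.54 and 0.20) and Nup50 (0.49 and 0.37) were above 0 with DSF under both stimuli, as was Nup210l at 38 to 90 counts (1.31 and 0.51). Nup93 and Pom121, at 0.03 and -0.13 under LPS in the first experiment, were at -0.70 and -0.67 here. With ibrutinib the members' ratios ran from -0.48 (Ndc1) to 0.21 (Nup210l) under LPS and from -0.38 (Ndc1) to 0.20 (Aaas) under IL-4+anti-CD40, with 23 and 26 of 28 below 0 and medians of -0.12 and -0.16, where the median of all genes was 0.01 and 0.00.

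**Figure D4:**
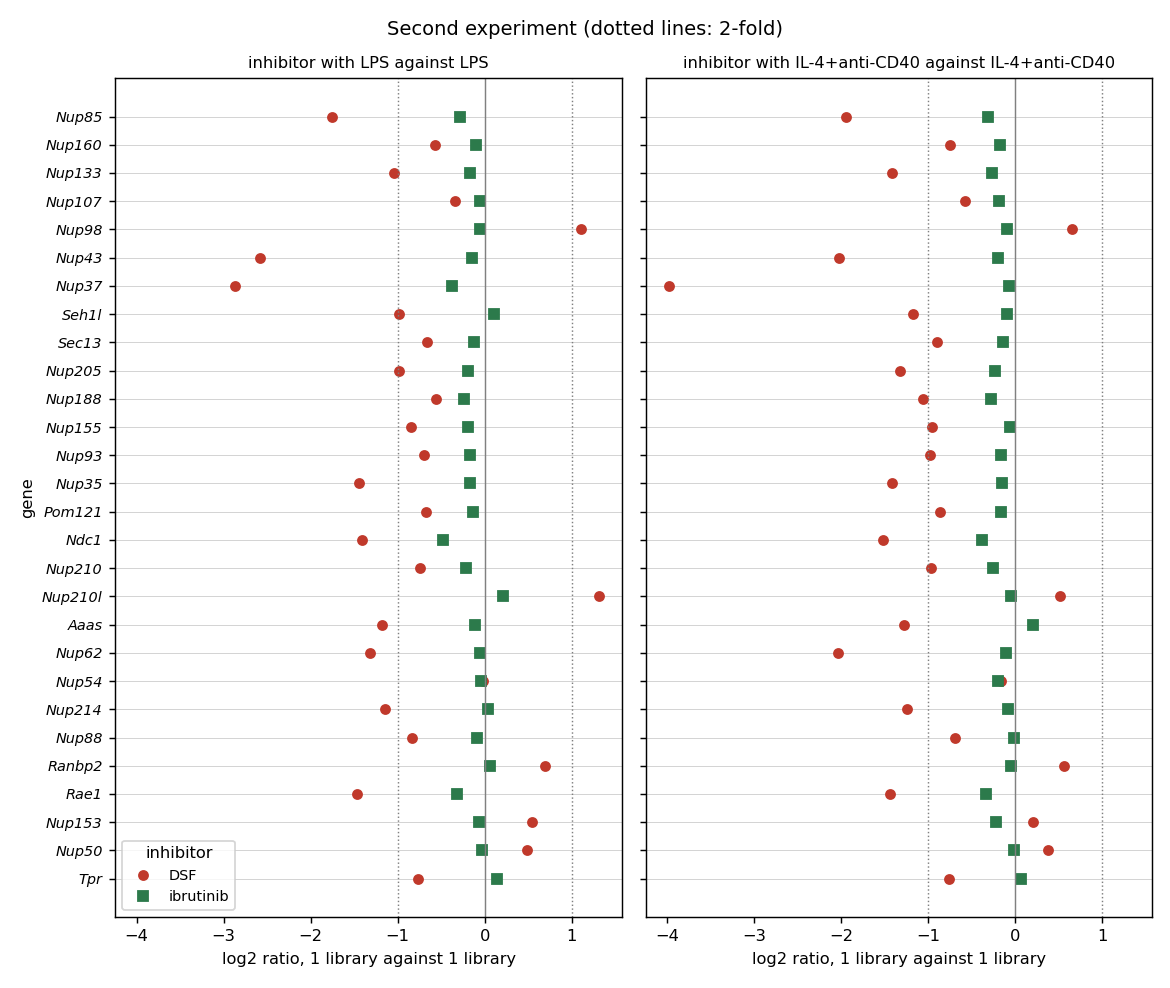
Log2 ratio of 1 library against 1 library (x axis) for 28 members (y axis) with DSF (red circles) or ibrutinib (green squares) under LPS (left) and IL-4+anti-CD40 (right), with dotted lines at 2-fold. The DSF points spread from -3.98 for Nup37 to 1.31 for Nup210l, and the ibrutinib points stay between -0.48 and 0.21.

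The pore proteins Nup58 and Nup42 were not members, since the tables list their genes under the older symbols Nupl1 and Nupl2. Nupl1 had 0 to 3 counts in every library of the first experiment. Nupl2 had 184 to 215 counts unstimulated, 231 to 312 with LPS, 48 to 67 with LPS+DSF, 241 to 369 with IL-4+anti-CD40 and 72 to 132 with IL-4+anti-CD40+DSF. The DSF ranges of Nupl2 thus lay below all others. Parts of Nup43, Nup35, Pom121, Nup214, Nup88, Tpr, Nup133 and Nup188 also overlap another protein-coding gene, so their values share the doubt given for Nup62.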

How the data were processed

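The authors trimmed reads with Fastp, aligned them with HISAT2 (2.0.5) to mm10 and counted them per gene with featureCounts (1.5.0-p3). The annotation release and strand setting are not given in the sources used here. The deposited counts were tested and the deposited FPKM were used for levels only. Differences came from edgeR 4.0.16 in R 4.3.3 (quasi-likelihood test, TMM, filterByExpr) on the 8 libraries compared, or 16 for the test between stimuli, with Benjamini-Hochberg adjustment over all genes tested and a threshold of 0.05. The script was tested on simulated data. In the second experiment, log2 ratios used TMM, a prior count of 2 and genes averaging 10 counts or more. DESeq2 1.42.0, other scalings and filters, and left-out libraries were alternatives. Depth covers counting error only. Members, lists and motifs were chosen with earlier results of these data known. Every member was named, with all libraries for Nup85 and the 2 largest falls and rises under DSF in each stimulus. Some genes of the lists are not reported here.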

Additional observations from a re-analysis of the deposited data

Results flagged for a closer look

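Within the 140 sets of 4 libraries of 1 member in 1 group, 1 library lay apart from the other 3 in 6, where chance gives about 5%. These were Nup107 in LPS replicate 1 (16.5 FPKM), Nup43 in LPS+DSF replicate 4 (6.17 FPKM), Nup35 in LPS+DSF replicate 1 (3.96 FPKM), Pom121 in IL-4+anti-CD40+DSF replicate 3 (21.7 FPKM), Aaas in LPS replicate 2 (16.9 FPKM) and Nup88 in IL-4+anti-CD40 replicate 4 (12.1 FPKM). No library held more than 1 of them. The DSF difference differed between the stimuli by test for Nup210 (-0.29), Nup62 (0.39) and Nup153 (0.30), as log2 fold change under LPS minus that under IL-4+anti-CD40.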

How the results depend on the processing

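Of 3388 member values under alternative settings, 3234 kept their direction and call, 83 lost and 56 gained a call, and 15 changed sign where either value was called. Under total counts the last were Nup93 (-0.18), Nup54 (-0.17) and Nup50 (-0.16) in LPS+DSF against LPS, Nup107 (-0.30), Nup43 (-0.04), Seh1l (-0.10), Sec13 (-0.33), Nup88 (-0.41) and Rae1 (-0.39) in LPS+DSF against unstimulated, and Sec13 (-0.04), Nup35 (-0.31) and Rae1 (-0.20) in IL-4+anti-CD40+DSF against unstimulated. With unstimulated replicates 1 and 2 only they were Nup88 (-0.18, LPS+DSF) and Nup133 (-0.19, IL-4+anti-CD40+DSF), and with 3 and 4 only Nup133 (0.31, LPS+DSF). Total counts gave 2 members lower in each comparison of a stimulus with unstimulated, 1 higher in IL-4+anti-CD40+DSF against IL-4+anti-CD40, against unstimulated 13 lower and 5 higher for LPS+DSF and 10 lower and 7 higher for IL-4+anti-CD40+DSF, and 17 lower and 1 higher in LPS+DSF against LPS of the second experiment, where no filter also gave 1 higher. With unstimulated replicates 3 and 4 only, LPS gave 1 member lower and IL-4+anti-CD40 gave 2, and with 1 and 2 only 0 were lower with IL-4+anti-CD40, 10 with LPS+DSF and 8 with IL-4+anti-CD40+DSF. Testing all genes with any count gave 0 lower with IL-4+anti-CD40 and 1 higher with IL-4+anti-CD40+DSF against IL-4+anti-CD40, and 1 fit of 20 libraries gave 2, 1 and, for the difference between stimuli, 0 higher. Leaving out 1 library gave 0 to 1 lower with IL-4+anti-CD40, 1 to 3 higher with IL-4+anti-CD40+DSF against IL-4+anti-CD40 and 0 to 1 lower for the difference between stimuli. The cause of these changes was not tested. Same-numbered replicates deviated together little or not at all (40 correlations of -0.06 to 0.17), so no pairing by number was seen. Such correlations cannot exclude that same-numbered libraries shared a mouse or a preparation. With the replicate block, Nup93 (-0.13, adjusted p = 0.0806 in IL-4+anti-CD40+DSF against IL-4+anti-CD40), Nup35 (0.37, adjusted p = 0.0541 in IL-4+anti-CD40 against unstimulated) and Nup160 (-0.26, adjusted p = 0.0605 in IL-4+anti-CD40+DSF against unstimulated) lost their call, Nup205 (0.29, adjusted p = 0.0463 in LPS+DSF against unstimulated) gained one, and no other member's call changed. Counts near 0 limit Nup62cl and Nup210l.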
